A study of Homo sapiens with 6 samples.

Results

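Poly(A) RNA of KYSE70 cells, an established line of human esophageal squamous carcinoma, was sequenced before and after a hairpin RNA against TP63 was switched on. The comparison used 3 of the 6 libraries of the series: 1 library at day 0 without doxycycline, and 2 libraries at day 4, after 4 days in 50 ng/ml doxycycline. Genes were taken up where their mean linear RPKM (reads scaled to gene length and library size) over all 6 libraries was at least 1, which kept 10536 of 48644 gene rows. All 3 libraries came from the line that stably carries pLKO-Tet-On-shTP63, a vector whose hairpin is made only in the presence of doxycycline. The other 3 libraries came from a sister line with pLKO-Tet-On-shSOX2, sampled in the same way (1 library at day 0, 2 at day 4), and serve here as a second day 0 reference and for values set side by side. No library with a non-targeting hairpin was analysed here, so effects of doxycycline or of making any hairpin cannot be told apart from those of less TP63. The titles number the day 4 libraries 1 and 2, read here as replicates, and the day 0 library carries the number 2. If the numbers mark different hairpins, the day 4 library numbered 1 has no day 0 library of its own. Separate cultures are not named in the labels, so the p-values cover the spread of these particular libraries, and that spread may be technical.

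TP63 encodes p63, a transcription factor that marks the basal layer of stratified epithelia. In skin and esophagus p63 maintains the proliferating basal cells, their attachment to the basement membrane and the squamous program, and in squamous carcinomas the gene is often amplified together with SOX2. Reported actions of p63 in keratinocytes run both ways: it activates genes of adhesion and growth, and it holds down cell cycle inhibitors such as CDKN1A.

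Levels are given as log2(RPKM + 1), the scale on which the values were deposited, and differences are log2 differences on that scale, which understate the change of low genes. Day 4 values are printed for replicate 2 first and replicate 1 second. Both day 4 libraries were set against the same single day 0 library, so an error in that library enters both differences in the same way. The day 0 library stood apart: it had 16167 genes above 0, against 21530 to 23509 in the other libraries, and its smallest value above 0 was 0.143, against at most 0.0147 elsewhere. The deposited values show no depth, because they had been brought to a common distribution. Of the squamous markers KRT5, the basal keratin, lay between 8.39 and 11.01 in all 6 libraries, while its partner KRT14 was low for a basal squamous cell at 0.66 to 2.70, the desmosome gene DSG3 lay between 2.94 and 4.29 and PKP1 between 3.86 and 4.59. Markers of other cells were mixed. The fibroblast genes DCN, LUM and COL1A2 were at or near 0 (at most 0.03). The collagens COL1A1 and COL3A1 of the same marker set lay between 1.49 and 2.68 and between 2.13 and 7.29. The leukocyte gene PTPRC was at most 0.04, while CD68 lay between 0.65 and 2.88. The endothelial gene CDH5 was at most 0.01 and VWF at most 0.86.

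TP63 itself was measured at 3.99 in the day 0 library and at 2.26 and 2.11 at day 4. In the shSOX2 line it was at 3.61 at day 0 and at 3.91 and 3.93 at day 4. The induced shTP63 libraries were thus the lowest of the 6, and replicates 2 and 1 differed by 0.15. The difference of -1.81 ± 0.32 (SE, limma over all genes, n = 2 against 1) did not pass after adjustment (adjusted p = 0.131), but with both day 0 libraries as the control it was -1.61 ± 0.26 and passed (limma, adjusted p = 0.0248). Against the induced shSOX2 libraries, a contrast that uses no day 0 library, TP63 was lower by -1.73 ± 0.26 (limma, adjusted p = 0.0467). SOX2, for comparison, was at 5.69 at day 0 and at 5.55 and 5.41 at day 4 of the shTP63 line, a difference of -0.22 ± 0.45. TP73, a relative of TP63, was at 3.56, then 4.10 and 3.98 (0.47 ± 0.34, adjusted p = 0.56 in limma).

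Across all genes, 2 of 10536 were called with limma at an adjusted p under 0.05, which is 0.019% of the genes tested, and 1535 genes (14.6%) had an unadjusted p under 0.05. FOSL1, an AP-1 subunit whose transcription follows ERK signalling, fell from 5.38 to 1.48 and 1.45, a difference of -3.91 ± 0.32 (limma, adjusted p = 0.0317). The gene ZNF467, whose product is a DNA-binding zinc finger protein, rose from 0 to 3.35 and 3.78 (limma, adjusted p = 0.0332). The day 0 value of ZNF467 is a listed 0 in the library with the fewest genes above 0. ZNF467 was highest in the induced shTP63 libraries, which count towards the filter, so its place in the test rests in part on those values. In the shSOX2 line, FOSL1 went from 4.49 to 2.79 and 2.61, and ZNF467 from 0.53 to 1.85 and 1.67, so both genes moved in the same direction there and by less. Neither difference between the lines passed in the test of the difference of the responses, which called 0 genes (limma, 479 genes, or 4.55%, at an unadjusted p under 0.05). Both calls rest on the spread pooled over the lines: leaving out either shSOX2 day 4 library left 0 calls, while leaving out a shTP63 day 4 library gave 60 calls (without replicate 1) or 80 (without replicate 2).

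With so few libraries, a rule of size was used beside the test: a gene at least 2-fold from day 0 in the same direction in both day 4 libraries. By this rule 321 genes (3.05% of those tested) were higher and 297 (2.82%) were lower at day 4, 618 (5.87%) in all, and a rescaling by median ratios gave 385 higher and 235 lower. The median difference was 1.5 among the higher genes and -1.43 among the lower ones. A stricter form required the same 2-fold distance from the day 0 libraries of both lines, and 174 higher (1.65%) and 131 lower genes (1.24%) met it. For scale, 487 genes (4.62%) lay at least 2-fold apart between the day 0 libraries of the lines and 551 (5.23%) between the shTP63 day 4 libraries. When limma was given both day 0 libraries as a control group of 2, 163 genes were called higher (1.55%) and 128 lower (1.21%). This second fit, which treats the uninduced lines as replicates of one state, is the source of the calls below where it is named.

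**Figure D1:**
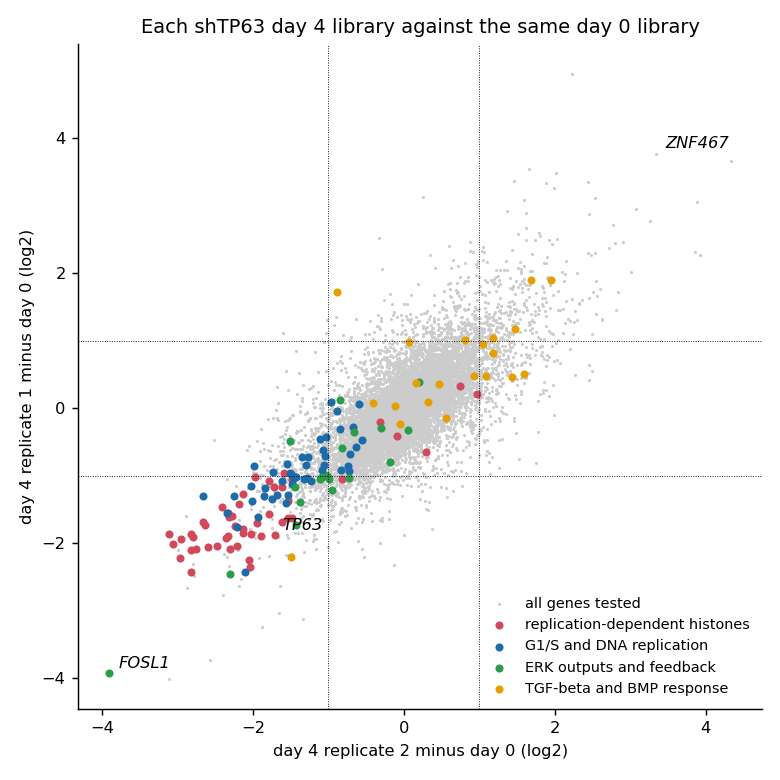
Change from day 0 (log2) of every gene tested in day 4 replicate 2 (x axis) and replicate 1 (y axis), each against the same day 0 library, with dotted lines at 2-fold. Histone, G1/S and ERK output genes sit mostly in the lower left, and FOSL1 and ZNF467 lie near opposite corners. Since the axes share the day 0 library, points spread along the diagonal in part by construction.

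Output genes of ERK signalling were lower at day 4 as a list. ERK is the last kinase of the growth factor cascade that runs through RAS and RAF, and its activity is read from a set of early target genes and feedback inhibitors. Of 19 tested genes of this list, 8 were at least 2-fold lower in both day 4 libraries (42.1%, against 2.82% of all genes) and 0 were higher. Below day 0 in both lay 16 (84.2%, against 38.5% of all genes). Their median difference was -1.01, against 0.00 for all genes tested. The stricter rule against both day 0 libraries kept 4 of the 8 (1.24% of all genes were lower by it). The second fit called 3 of the 19 lower (1.21% of all genes). The list's median against the shSOX2 day 0 library was -0.44. ETV4, an ETS factor induced by ERK, was at 4.73 at day 0 in both lines and at 2.42 and 2.27 in the induced shTP63 libraries, below all the others (4.04 to 4.73). Its difference was -2.38 ± 0.25 in the second fit (limma, adjusted p = 0.0103). SPRY4, a feedback inhibitor of the same cascade, was at 1.83, then 0.45 and 0.43, against 1.33 to 1.67 in the shSOX2 line (-1.31 ± 0.23 in the second fit, limma, adjusted p = 0.0273). DUSP7, a phosphatase that acts on ERK, was at 3.32, then 1.90 and 1.59, but the shSOX2 libraries at day 4 were as low, at 1.34 and 1.74.

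Among AP-1 and immediate early factors the members did not move together. At least 2-fold lower in both libraries were 4 of 12 (33.3%, against 2.82% of all genes), and 2 were higher (16.7%, against 3.05%). MAFF, a small MAF protein, was at 3.19, then 1.63 and 1.01, lower by -1.72 ± 0.28 in the second fit (limma, adjusted p = 0.025). Its levels also fell in the shSOX2 line, from 2.89 to 1.91 and 1.89. EGR1, an immediate early zinc finger factor, went the other way, from 1.72 to 4.17 and 4.60 (2.55 ± 0.46 in the second fit, limma, adjusted p = 0.0281). In the shSOX2 line EGR1 was at 1.97 at day 0 and at 3.56 and 1.94 at day 4, so 1 of those libraries was high as well. JUNB, a subunit of AP-1, was at 3.62, then 5.32 and 4.81, above all 3 shSOX2 libraries (2.95 to 3.36), and passed in the second fit (limma, 1.78 ± 0.32, adjusted p = 0.028). Of 7 tested ERBB receptors and ligands 2 were at least 2-fold lower in both libraries (28.6%) and 1 was higher (14.3%). Among 15 other receptor tyrosine kinases and ligands 3 were lower (20%) and 1 higher (6.67%). The shares over all genes were 2.82% lower and 3.05% higher. ARTN, a ligand of the GDNF family, was at 3.98, then 2.53 and 2.89, and was called in the second fit (limma, adjusted p = 0.0397). The next 3 genes were not called in either fit. NRG1, a ligand of ERBB3 and ERBB4, was at 4.56, then 2.70 and 3.33. AREG, a ligand of EGFR, was at 3.71, then 1.44 and 1.67, and FGFBP1, a carrier of fibroblast growth factors, at 5.36, then 3.38 and 4.00. Against the shSOX2 day 0 library (4.06, 2.48 and 4.76) the distances of these genes were smaller. ERBB2, a receptor, was at 2.47, then 3.70 and 3.62.

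**Figure D2:**
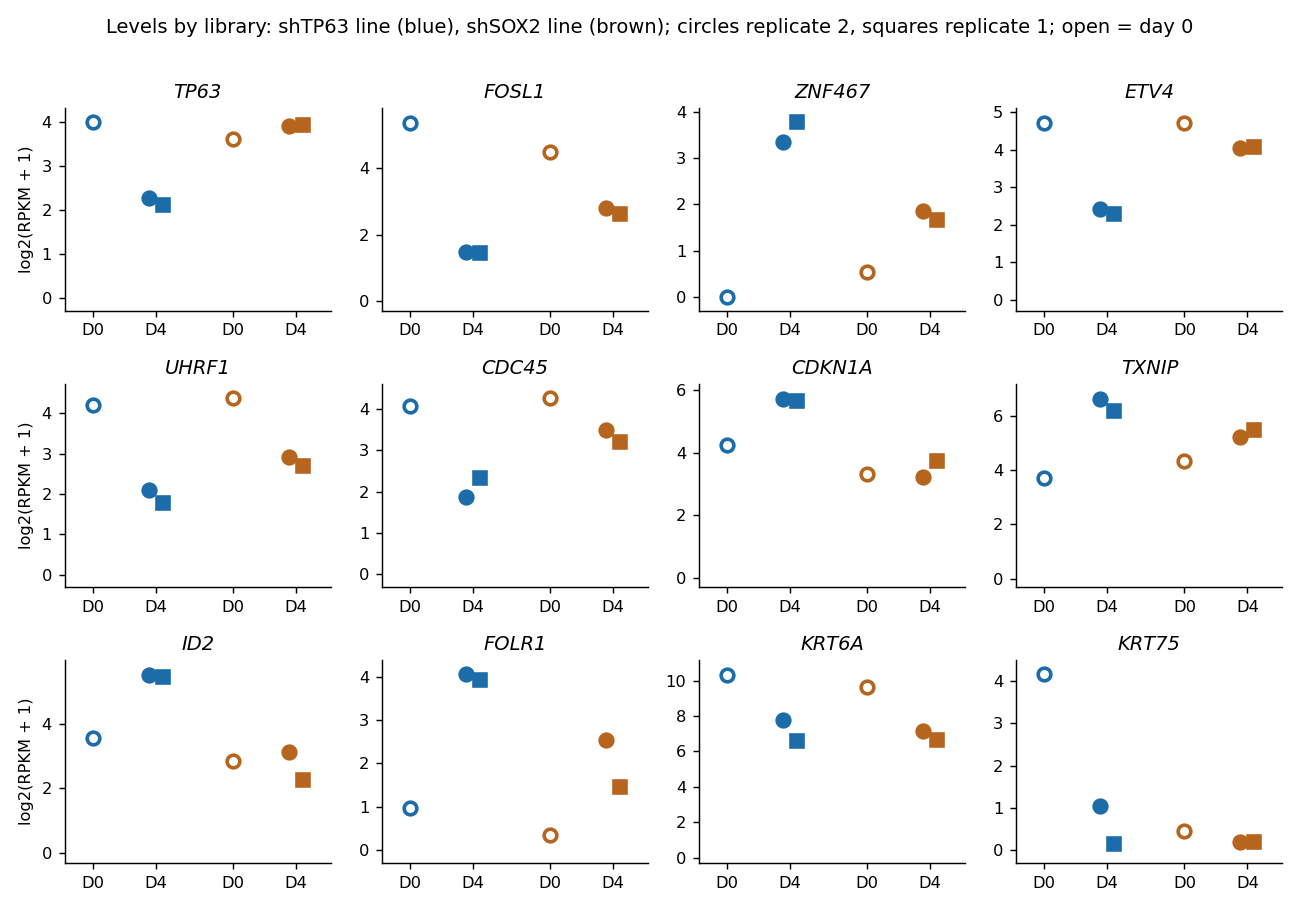
Level of 12 genes, log2(RPKM + 1), in each of the 6 libraries. Blue symbols are the shTP63 line and brown symbols the shSOX2 line, open symbols day 0 and filled symbols day 4, circles replicate 2 and squares replicate 1. TP63 and ETV4 are low only in the induced shTP63 libraries, FOSL1 and UHRF1 are low in both induced lines, and KRT75 is high only in the lone shTP63 day 0 library.

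Genes of the G1/S transition and of DNA replication were lower as a group. Cells copy their DNA once a cycle, and before they do so E2F factors switch on the origin licensing proteins, the replicative helicase and polymerases and the enzymes that make deoxynucleotides. Of 48 tested genes, 46 lay below day 0 in both day 4 libraries (38.5% of all genes did) and 0 lay above. At least 2-fold lower in both were 23 (47.9%, against 2.82% of all genes), of which 15 were also 2-fold below the shSOX2 day 0 library (1.24% of all genes met both). The second fit called 16 lower and 0 higher (1.21% and 1.55% of all genes). The median difference was -1.19 against the shTP63 day 0 library and -1.24 against the shSOX2 day 0 library. The median level of the list was 3.27 at day 0, 1.86 and 2.36 at day 4, and 3.52 in the shSOX2 day 0 library. In bulk RNA a smaller share of cells in S phase and less RNA per cell cannot be told apart.

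UHRF1, which carries DNA methylation through replication, was at 4.19 at day 0 and at 2.09 and 1.77 at day 4, and at 4.37 in the shSOX2 day 0 library (-2.35 ± 0.26 in the second fit, limma, adjusted p = 0.0103). CDC45, a part of the replicative helicase, was at 4.08, then 1.86 and 2.32 (-2.07 ± 0.28 in the second fit, limma, adjusted p = 0.0155). MCM7, a helicase subunit, was at 6.34, then 4.40 and 4.72 (limma, second fit, -1.63 ± 0.29, adjusted p = 0.028). For each of these genes the shSOX2 line at day 4 lay between: 2.93 and 2.70 for UHRF1, 3.49 and 3.20 for CDC45, 5.34 and 5.32 for MCM7. CDC6, which loads the helicase, was at 2.98, then 1.14 and 1.68, and in the shSOX2 line at 3.25, then 1.86 and 1.93. The median response of the list was -0.69 in the shSOX2 line, and 0 members passed in the test of the difference between the responses.

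The promoters of this list often held the letters of the E2F site. In the 250 bases before the RefSeq start, TTTCCCGC or TTTGGCGC on either strand was present in 17 of the 41 members with an entry (41.5%), against 2.36% of the 27305 genes of the promoter table and 4.1% of the 7579 tested genes with an entry. The AP-1 letters TGANTCA (either strand, in letters that cannot overlap those of E2F) were present in 1 of the 41 (2.44%), against 8.06% of the table. A match describes the letters only. Among members at least 2-fold below the day 0 libraries of both lines, 6 of the 12 with an entry held the E2F letters (50.0%), beside 41.5% of the whole list. A link between the site and the drop was not tested. The next lines show 60 bases around the match for the 6 members that held it and were at least 2-fold below the day 0 libraries of both lines, chosen after their values were seen, so that a reader can see where the site lies. They are from RefSeq, build GRCh38.p14, written 5′ to 3′ on the strand of the gene, with the E2F letters in capitals.
UHRF1, chr19:4909441-4909500, plus strand: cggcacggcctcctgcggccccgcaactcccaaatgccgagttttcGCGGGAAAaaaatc
MCM7, chr7:100101551-100101610, minus strand: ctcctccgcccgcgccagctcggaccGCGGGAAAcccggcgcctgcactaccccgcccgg
CDT1, chr16:88803728-88803787, plus strand: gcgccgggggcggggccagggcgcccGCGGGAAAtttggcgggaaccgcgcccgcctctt
LIG1, chr19:48170425-48170484, minus strand: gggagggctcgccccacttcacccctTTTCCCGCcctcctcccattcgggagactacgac
CDCA7, chr2:173354781-173354840, plus strand: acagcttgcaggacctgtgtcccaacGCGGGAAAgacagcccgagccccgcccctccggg
MCM3, chr6:52284883-52284942, minus strand: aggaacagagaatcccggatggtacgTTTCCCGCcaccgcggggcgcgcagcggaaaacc
The match began 14 bases before the start in UHRF1 and 35 in CDT1, and lay farther up in MCM7 (187 bases) and MCM3 (174 bases). All 6 showed the letters of the TTTCCCGC form, read on one strand or the other. The differences of these 6 genes from day 0 were widest for UHRF1 (-2.26) and smallest for MCM3, whose levels were 5.97, then 4.50 and 4.95.

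The day 4 libraries parted over the later cell cycle. Genes of G2 and M phase, which build the spindle and drive division, had a median difference of -1.44 in replicate 2 and of -0.31 in replicate 1. At least 2-fold lower were 29 of the 43 in replicate 2 (6.23% of all genes were) and 3 in replicate 1 (5.27% of all genes were). Replicate 2 was the lower library for 42 of the 43, against 49.3% of all genes tested, and for 44 of the 48 G1/S genes. CDC20, which activates the anaphase promoting complex, was at 6.28, then 3.95 and 5.23. MKI67, which encodes the proliferation marker Ki-67, was at 3.81, then 2.28 and 4.08, and TPX2, a spindle assembly factor, at 3.69, then 2.02 and 3.77. Replicate 1 was thus not below the shTP63 day 0 library for either. The median level of the G2 and M list was 3.02 in that library, 1.73 and 2.99 at day 4, and 3.64 in the shSOX2 day 0 library. Against the shSOX2 day 0 library the median difference of the list was -1.17, that of MKI67 -1.92 and that of TPX2 -1.24 (mean of both day 4 libraries). AURKA, a mitotic kinase, was at 3.39, then 1.95 and 2.47, and was the only member called in the second fit (limma, -1.44 ± 0.29, adjusted p = 0.04). The G1/S genes were lower in both libraries, with medians of -1.39 and -0.96.

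**Figure D3:**
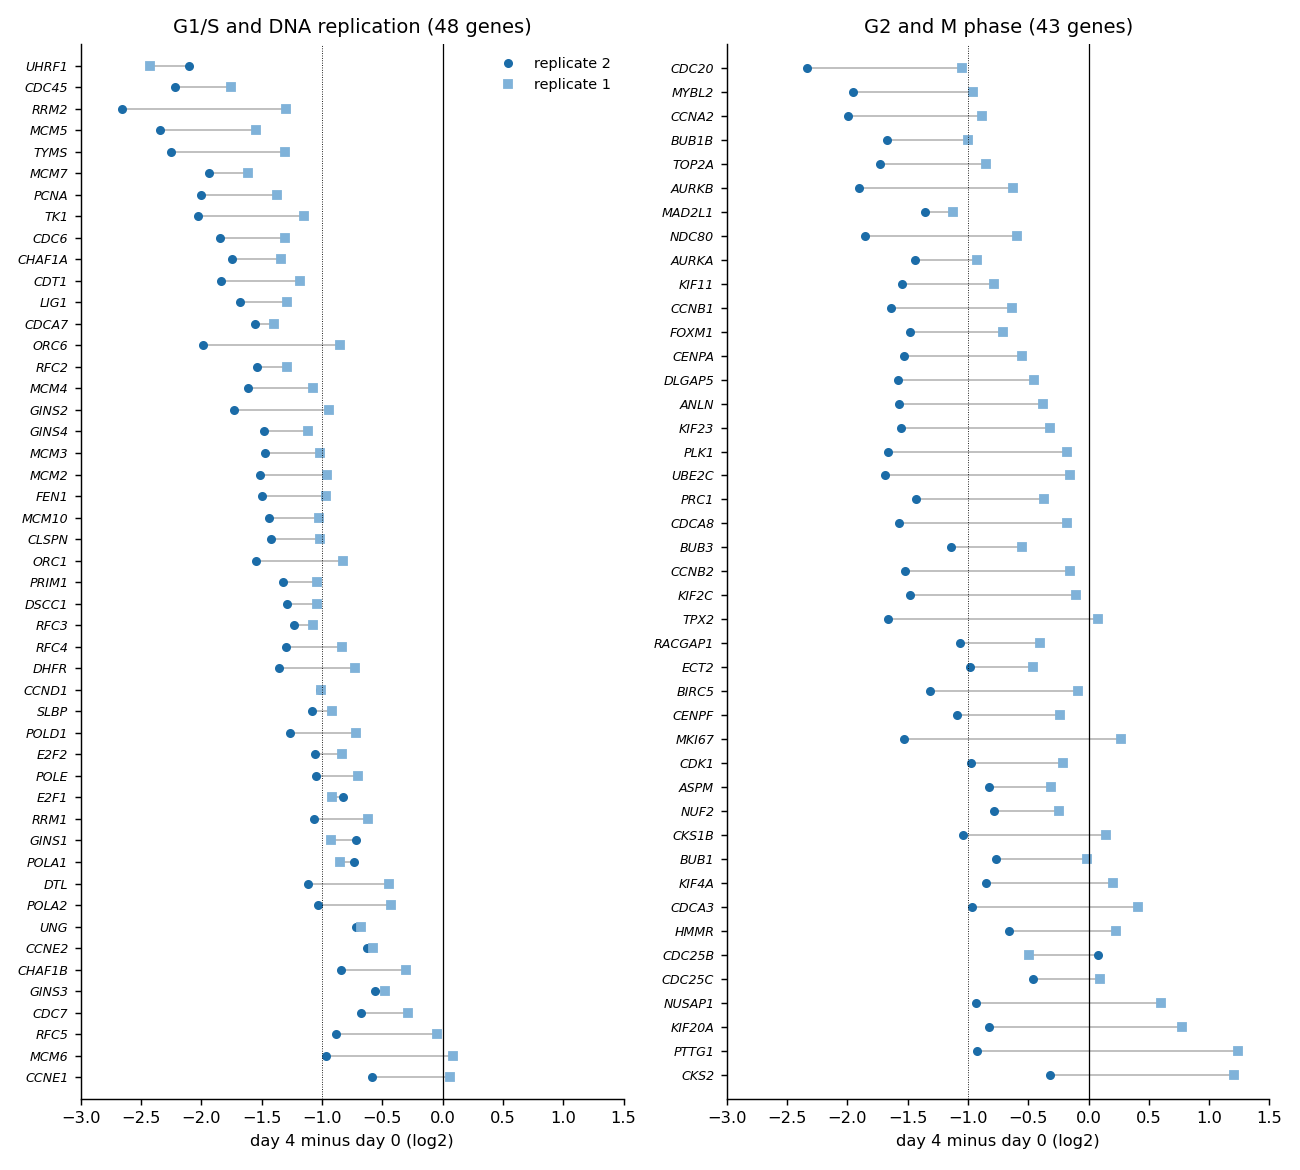
Change from day 0 (log2) of each tested gene of the G1/S and DNA replication list (left, 48 genes) and the G2 and M phase list (right, 43 genes), circles for replicate 2 and squares for replicate 1, joined by a line. The left panel lies below 0 in both libraries for 46 genes, while on the right replicate 2 is far below replicate 1.

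Replication-dependent histone genes gave the most numerous drop under the rule of size and also the one that rested most on a single library. Their messages end in a stem-loop in place of a poly(A) tail, and they are made in S phase. The libraries were of poly(A) RNA, so the values cover only histone RNA that came through that selection. Of 50 tested genes 42 were at least 2-fold lower in both day 4 libraries (84%, against 2.82% of all genes), which is 14.1% of all 297 lower genes. The median difference of the list was -1.94, and every H4 gene tested (10 of 10) was among the 42. Only 1 of the 42 was also 2-fold below the shSOX2 day 0 library (1.24% of all genes met both). The median level of the list was 4.84 in the shTP63 day 0 library, against 3.29 in the shSOX2 day 0 library and 2.68 and 3.21 in the induced shTP63 libraries. The day 0 library of the shTP63 line was the one that stood high, and the median difference from the shSOX2 day 0 library was -0.36. HIST1H4C, the member that met the stricter rule, was at 6.43, then 4.39 and 4.07, with 5.63 in the shSOX2 day 0 library (limma, second fit, -1.80 ± 0.33, adjusted p = 0.0303). Reads of near-identical histone genes cannot be assigned with certainty.

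Among inhibitors of the cycle CDKN1A was the only CDK inhibitor at least 2-fold higher in both libraries. The gene, which encodes p21 and is reported to be held down by p63, was at 4.24 at day 0 and at 5.73 and 5.67 at day 4, against 3.22 to 3.74 in the shSOX2 line. It passed in the second fit (limma, 1.93 ± 0.35, adjusted p = 0.0298) and against the induced shSOX2 libraries (limma, 2.22 ± 0.30, adjusted p = 0.0392). The lines already differed by 0.92 at day 0 for CDKN1A, and that distance enters both contrasts. Against its own day 0 the difference was 1.47 ± 0.37. Of 11 tested CDK inhibitors and genes of resting cells, 4 were at least 2-fold higher in both libraries and also against both day 0 libraries (36.4%). Of all genes 3.05% met the former and 1.65% the latter. None of the 11 was 2-fold lower. Below day 0 in both libraries were CDKN2D, a CDK4 and CDK6 inhibitor (differences of -0.83 and -0.92), and the zinc finger factor KLF6 (-0.68 and -1.02), neither called. The other 3 of the 4 were BTG2, BTG1 and PDCD4. BTG2, an antiproliferative gene, was at 2.61, then 4.97 and 4.21, and PDCD4, an inhibitor of translation, at 2.97, then 5.20 and 4.59, and both passed in the second fit (limma, adjusted p = 0.0224 and 0.0363). BTG1, the relative of BTG2, was at 2.84, then 4.20 and 4.01. In the shSOX2 line BTG2 was also higher at day 4 (3.33 and 3.93 from 2.08).

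Genes that supply nucleotides and folate lay mostly below day 0. UPP1, uridine phosphorylase, was at 4.53, then 2.35 and 1.90 (limma, second fit, -2.15 ± 0.30, adjusted p = 0.0178), and PAICS, an enzyme of purine synthesis, at 3.80, then 2.03 and 2.50. Both also fell in the shSOX2 line, UPP1 from 4.02 to 2.61 and 2.20 and PAICS from 3.97 to 3.07 and 2.70. SLC19A1, the reduced folate carrier, was at 2.83, then 0.92 and 1.31, below all shSOX2 libraries (2.76 to 3.52). It passed in the second fit (limma, -2.06 ± 0.30, adjusted p = 0.018) and against the induced shSOX2 libraries (limma, -1.74 ± 0.27, adjusted p = 0.0467). The lines already differed by -0.68 at day 0 for SLC19A1, and that distance enters both contrasts. FOLR1, the folate receptor on the cell surface, went the opposite way, from 0.97 to 4.05 and 3.93 (limma, second fit, 3.33 ± 0.37, adjusted p = 0.0103), with 0.35 at day 0 and 2.53 and 1.46 at day 4 in the shSOX2 line. Of the 26 tested genes of this list 19 lay below day 0 in both libraries (73.1%, against 38.5% of all genes) and 2 above, 6 were at least 2-fold lower (23.1%, against 2.82%), and FOLR1 was the only one at least 2-fold higher. The second fit called 4 lower and 1 higher (1.21% and 1.55% of all genes). The list's median difference was -0.47 in the shTP63 line and -0.50 in the shSOX2 line, a drop of like size. SLC7A5, the transporter of large neutral amino acids, was also lower, at 7.97, then 6.49 and 5.82, while the shSOX2 line stood at 7.95, then 8.65 and 8.30 (limma, second fit, -1.81 ± 0.37, adjusted p = 0.0397). Its partner SLC3A2 was at 6.53, then 5.77 and 5.39, and in the shSOX2 line at 7.28, then 7.43 and 7.23. It was lower than in the induced shSOX2 libraries (limma, -1.75 ± 0.28, adjusted p = 0.0483), but did not pass against day 0. The lines already differed by -0.75 at day 0 for SLC3A2, and that contrast includes this distance.

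The squamous program did not move as one. Of 34 tested genes reported as p63 targets in keratinocytes, 5 were at least 2-fold higher in both day 4 libraries (14.7%, against 3.05% of all genes). Lower were 2 (5.88%, against 2.82%), and the median difference was 0.22. The list's medians in the separate libraries were 0.26 and -0.02. DLX5, a homeobox factor of epithelial and bone development, was at 2.03, then 3.72 and 3.43, while the induced shSOX2 libraries were at 1.12 and 0.73. It was higher than in those by 2.65 ± 0.27 (limma, adjusted p = 0.0255) and passed in the second fit (limma, 1.73 ± 0.27, adjusted p = 0.0224). FGFR2, a receptor for fibroblast growth factors, was at 1.74, then 3.20 and 2.94, and in the shSOX2 line at 2.21, then 2.96 and 3.08. GPX2, a glutathione peroxidase, was at 5.22, then 6.76 and 6.35, with 5.93 to 6.11 in the shSOX2 line. Neither was called (limma, adjusted p = 0.158 and 0.177, and 0.0653 and 0.14 in the second fit). BNC1, a zinc finger factor of the squamous list, was at 1.42, then 0.67 and 0.53 and showed no call. TP63 was the only one of 17 that was 2-fold from day 0 in both libraries.

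Attachment genes of basal cells moved little as a list, with a median difference of -0.20. At least 2-fold lower in both libraries was 1 of 21 (4.76%, against 2.82% of all genes), and 0 were higher. ITGA6, an integrin of the hemidesmosome, was at 4.37, then 3.55 and 2.90, and PLEC, which encodes the linker plectin, at 6.94, then 6.10 and 5.39. Neither passed (limma, adjusted p = 0.25 and 0.27). COL7A1, the collagen of anchoring fibrils, was at 3.69, then 2.87 and 2.72, and at 4.88 to 5.04 in the shSOX2 line. The lines already differed at day 0 for this gene. CDH1, the E-cadherin of adherens junctions, was at 1.87, then 3.86 and 5.13, but the shSOX2 libraries lay between 3.50 and 3.81, so the day 0 library of the shTP63 line was the low one.

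Differentiation keratins and envelope genes went both ways in both libraries. At least 2-fold lower were 5 of 17 (29.4%, against 2.82% of all genes), and 2 were higher (11.8%, against 3.05%). KRT6A, a keratin of activated and hyperproliferative epithelium, was at 10.31, then 7.74 and 6.58, and KRT6C at 6.67, then 4.78 and 3.43. Both passed in the second fit (limma, adjusted p = 0.0273 and 0.028). The shSOX2 line showed like drops, in KRT6A from 9.61 to 7.13 and 6.64 and in KRT6C from 6.26 to 3.76 and 3.52. KRT6 genes are nearly identical, and the split of their reads is uncertain. CNFN, a component of the cornified envelope, was at 0.41, then 2.51 and 2.42, above the shSOX2 libraries (0.80 to 1.58), and passed in the second fit (limma, 1.86 ± 0.25, adjusted p = 0.0158). KRT75, a keratin of hair follicles, had the third smallest unadjusted p of all genes, at 4.16, then 1.04 and 0.15 (limma, adjusted p = 0.0637). The shSOX2 libraries held 0.19 to 0.46, so the shTP63 day 0 library was alone in having this transcript, and against the shSOX2 day 0 library the difference was 0.13. The same held for RP11-1020M18.10, a clone-named gene at 2.82 in that library and 0.06 to 0.43 in the other 5.

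BMP and TGF-beta response genes were higher as a group. BMPs signal through SMAD proteins, and the ID genes, whose products block basic helix-loop-helix factors, are their usual readout. Of 21 tested genes 15 lay above day 0 in both libraries (37.9% of all genes did), 4 of them at least 2-fold (19%, against 3.05%). The 4 kept that distance against both day 0 libraries (1.65% of all genes did), while 1 gene was at least 2-fold lower (4.76%, against 2.82%). The second fit called 4 higher and 0 lower (1.55% and 1.21% of all genes). The median difference was 0.70, and 0.42 in the shSOX2 line. At day 0 the list already stood 0.64 higher in the shTP63 line than in the shSOX2 line, and that distance enters the second fit. ID2 was at 3.56, then 5.51 and 5.45, with 2.25 to 3.12 in the shSOX2 line (limma, second fit, 2.27 ± 0.36, adjusted p = 0.0224). ID3 was at 6.24, then 7.71 and 7.42 (1.32 ± 0.38 against its own day 0), and in the shSOX2 line at 5.02, then 5.43 and 5.95. It passed in the second fit (limma, adjusted p = 0.0492) and against the induced shSOX2 libraries (limma, 1.87 ± 0.31, adjusted p = 0.049). The lines already differed by 1.22 at day 0 for ID3, and that distance enters both contrasts. BMP4, a ligand, was at 1.40, then 3.08 and 3.29, and in the shSOX2 line at 0.76, then 2.96 and 2.44, a response of like size. Genes of the Wnt pathway went both ways by the rule of size, with 3 of 19 higher (15.8%, against 3.05% of all genes) and 2 lower (10.5%, against 2.82%). The ligand WNT7B was at 4.54, then 2.35 and 2.88, and in the shSOX2 line at 3.71, then 4.45 and 3.90. The ligand WNT5A was at 2.41, then 3.45 and 3.59, and also rose in the shSOX2 line, from 2.32 to 3.50 and 3.95. The receptor FZD2 was at 2.46, then 3.94 and 3.87, and in the shSOX2 line at 2.77, then 4.19 and 4.07.

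Of 12 tested mesenchymal genes 8 lay above day 0 in both libraries and 3 below, with a median difference of 0.80 in the shTP63 line and 0.81 in the shSOX2 line. By the rule of size 4 were higher (33.3%, against 3.05% of all genes), all of them collagens, and 1 was lower. COL3A1, a fibrillar collagen, was at 2.13, then 6.47 and 5.79, and in the shSOX2 line at 3.24, then 4.78 and 7.29. Its difference had a wide error (limma, second fit, 3.44 ± 0.71, adjusted p = 0.04). COL5A1 was at 0.65, then 2.58 and 2.47, and in the shSOX2 line at 0.84, then 3.63 and 2.36. The summed level of 7 fibroblast markers (linear values added, then put back on the log2 scale) was 2.75 at day 0 and 6.56 and 5.91 at day 4, of which COL3A1 made up most. VIM was 0.54, then 0.33 and 0.53, and DCN and LUM were at or near 0 in every library. CNN1, a smooth muscle calponin in the same mesenchymal list, was lower, at 2.22, then 0.88 and 0.62, and in the shSOX2 line at 2.48, then 0.37 and 0.08. C1S, the protease of the first complement component, was at 1.5, then 3.64 and 3.49 (limma, second fit, 2.18 ± 0.25, adjusted p = 0.0103), and at 1.28, then 3.61 and 3.79 in the shSOX2 line. Of 9 tested complement genes 7 lay above day 0 in both shTP63 day 4 libraries (77.8%, against 37.9% of all genes). The median difference of these 9 genes was 0.84, and 0.88 in the shSOX2 line. C1S was the only one of them past the rule of size and the only one called in the second fit.

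Cholesterol genes, which the SREBP factors switch on when sterol runs low, lay above day 0 in both libraries for 25 of 32 (78.1%, against 37.9% of all genes), with 5 at least 2-fold higher (15.6%, against 3.05%), 0 lower and a median difference of 0.64. INSIG1, a sterol sensor of that circuit, was at 1.72, then 3.31 and 3.83, and in the shSOX2 line at 1.63, then 2.94 and 3.24. STARD4, a carrier of cholesterol, was at 0.43, then 1.99 and 2.43, with 0.58 to 1.21 in the shSOX2 line. Both passed in the second fit (limma, adjusted p = 0.018 and 0.0224). The list's median was 0.58 in the shSOX2 line.

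NRF2 and glutathione genes, which protect from oxidants, were higher mainly in replicate 2. Their median difference was 0.78 in replicate 2 and 0.21 in replicate 1, and 13 of 30 against 5 of 30 were at least 2-fold higher. Over all genes 6.03% and 6.25% were. By the rule in both libraries 4 were higher (13.3%, against 3.05% of all genes) and 0 lower. GSTM3, a glutathione transferase, was at 2.51, then 4.45 and 4.00 (limma, second fit, 1.46 ± 0.30, adjusted p = 0.04), with 3.02 to 3.81 in the shSOX2 line. FTL, the light chain of ferritin, was at 10.69, then 11.69 in both day 4 libraries. The highest values of the table take a few shared steps, so such ties carry little weight. TXNIP, an arrestin that reports glucose and binds thioredoxin, was at 3.71, then 6.62 and 6.17, above the shSOX2 line (4.31, then 5.22 and 5.46), with a difference of 2.38 ± 0.33 in the second fit (limma, adjusted p = 0.0163). ARRDC3, its relative, was at 0.95, then 2.53 and 1.90, and HK2, the hexokinase that traps glucose, was at 3.34, then 1.60 and 1.70 (limma, second fit, adjusted p = 0.0366 and 0.021). In the shSOX2 line HK2 was as low at day 4, at 1.34 and 1.96.

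**Figure D4:**
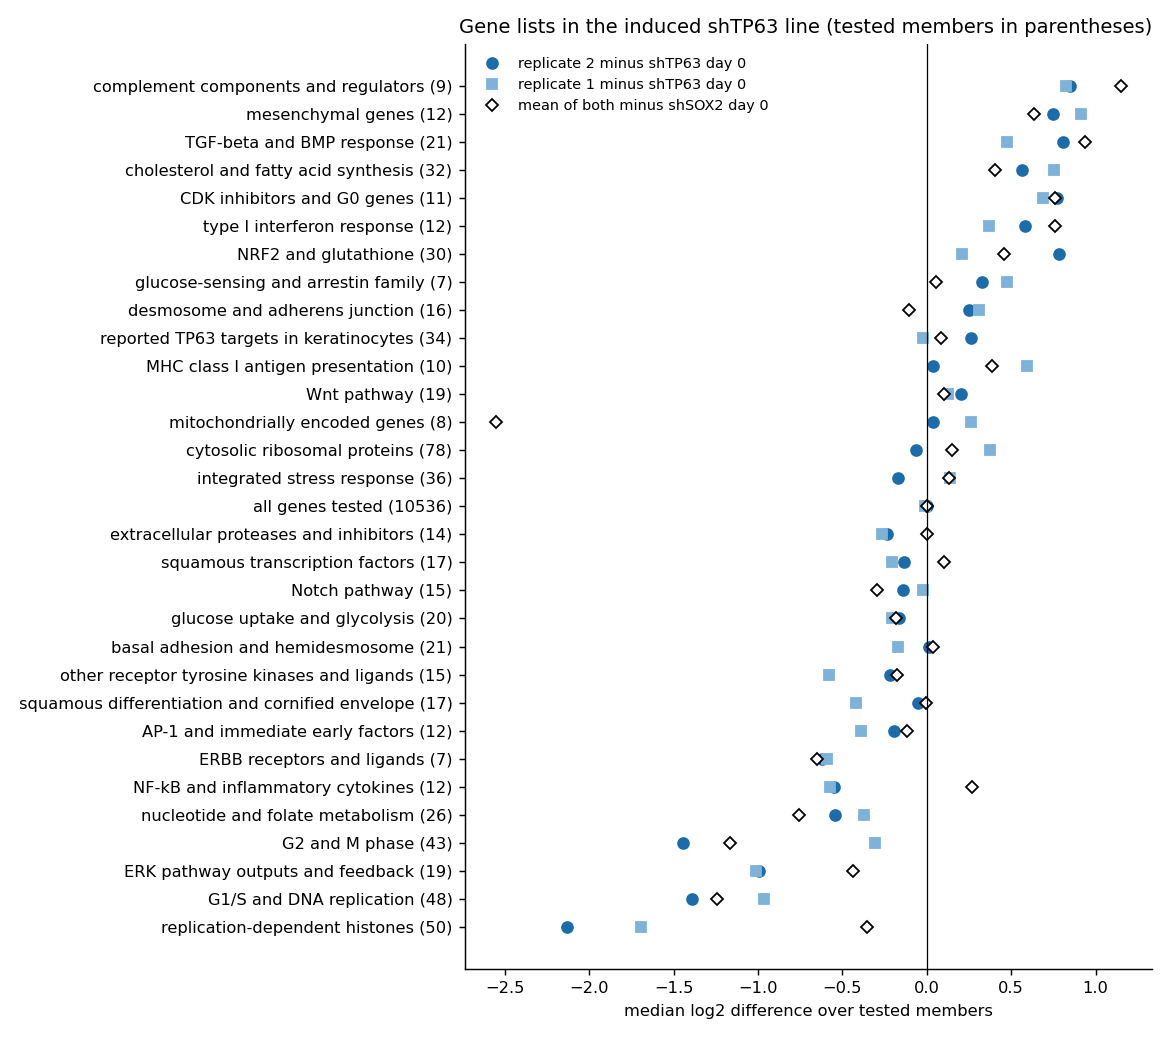
Median log2 difference over the tested members of gene lists with at least 7 of them, for replicate 2 (circles) and replicate 1 (squares) against the shTP63 day 0 library, and for the mean of both against the shSOX2 day 0 library (diamonds). The G1/S list is near -1 by all 3 measures, the histone list is at -2.13 and -1.70 against its own day 0 but at -0.36 against the other, and all genes tested sit at 0.

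Most of the other genes with small p-values belonged to no list. ARID5B, a chromatin factor, was at 1.64, then 4.12 and 3.91, with 1.95 to 2.06 in all shSOX2 libraries (limma, second fit, 2.22 ± 0.25, adjusted p = 0.0103). It was also higher than in the induced shSOX2 libraries (limma, 1.95 ± 0.26, adjusted p = 0.0331). RGAG4, a gene derived from a retrotransposon, was at 1.53, then 4.25 and 3.91. CA11, a protein related to carbonic anhydrases, was at 1.85, then 3.89 and 4.36, and NELL2, a secreted glycoprotein, at 1.45, then 3.60 and 3.64. In the shSOX2 line CA11 was also higher at day 4 (3.29 and 3.26 from 0.94), as was NELL2 (3.07 and 2.62 from 1.04). GAL, the neuropeptide galanin, was at 3.18, then 0.79 and 1.02, below the shSOX2 libraries (2.16 to 3.22), and passed in the second fit (limma, -2.29 ± 0.27, adjusted p = 0.0103). FTLP3, a ferritin pseudogene that shares sequence with FTL, was at 1.38, then 3.29 and 3.33. CD68, a lysosomal protein of macrophages that other cells make too, was at 2.88, then 0.96 and 0.65. It was the only leukocyte marker in the tested set, and the shSOX2 day 0 library stood at 1.91.

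In the test of the difference between the responses no gene passed, and the genes of smallest p showed where the lines came nearest to it. FEZF1, a zinc finger factor, was at 1.82, then 3.39 and 3.60 in the shTP63 line and at 2.53, then 1.05 and 1.51 in the shSOX2 line (difference 2.92 ± 0.48, limma, adjusted p = 0.962). ALDH1A1, a retinaldehyde dehydrogenase, was at 3.59, then 5.49 and 5.52, against 4.92, then 3.63 and 4.32. KRT75 and GNG13, a G protein subunit at 2.38, then 0.18 and 0.27, were among the lowest. For GNG13 the shSOX2 libraries lay between 0.77 and 1.14.

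The day 4 libraries also differed from each other outside these groups. Taken alone, replicate 2 had 635 genes at least 2-fold higher than day 0 (6.03%) and 656 lower (6.23%), and replicate 1 had 659 (6.25%) and 555 (5.27%). Of these, 70 higher and 70 lower genes of replicate 2 were near day 0 in replicate 1, that is within a ratio of 5 to 4, and 63 and 55 genes of replicate 1 were so in replicate 2. CKB, the brain creatine kinase, was at 6.02 at day 0, 8.01 in replicate 2 and 5.92 in replicate 1, and S100A6, a calcium-binding protein, at 8.04, 9.88 and 8.26. ACLY, which makes cytosolic acetyl-CoA, was at 4.58, 2.91 and 4.90. LGALS3, a galectin, was low only in replicate 1, at 7.59, 7.46 and 5.26, and so was AHNAK2, a large scaffold protein, at 4.86, 5.18 and 3.36. Cytosolic ribosomal protein genes were lower in replicate 2 than in replicate 1 for 68 of 78, with medians of -0.06 and 0.37 against day 0. Only 3 genes were at least 2-fold from day 0 in opposite directions: ANKRD1 (4.36, 3.35 and 5.67), CMTM3 (2.30, 1.27 and 3.41) and HLA-C (2.99, 1.39 and 4.11), each lower in replicate 2 and higher in replicate 1. These were named after their values were seen.

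Of the tested genes 56 were listed at 0 in the shTP63 day 0 library, against 0 to 5 in each of the other libraries. The other 5 libraries all had a value above 0 for 53 of them, and the shSOX2 day 0 library was at 1 or more for 45. By the rule of size 33 of the 56 were higher at day 4 (3.05% of all genes tested were), but a gene at 0 can only rise. Only 6 were 2-fold above the shSOX2 day 0 library as well (1.65% of all genes tested met both). The median level of the 56 was 1.35 in the shSOX2 day 0 library and 1.24 and 1.39 in the induced shTP63 libraries. A gene at 0 in the shTP63 day 0 library passed the filter only through its values in the other libraries. The levels and counts given for those libraries thus follow in part from the filter. The names were mostly clone names (33) or small structural RNAs and microRNA hosts (12), classes that make up 10.1% and 0.712% of the genes tested. Fold changes are not given for them, as day 0 is listed at 0. Those that met the stricter rule were ZNF467, RP4-781B1.2 (0, then 3.88 and 3.05, with 1.15 in the shSOX2 day 0 library), AC007563.5 (0, then 3.87 and 2.32, with 0.21), AC090616.2 (0, then 2.44 and 2.31, with 0.21), RN5S17, a 5S ribosomal RNA gene of many copies (0, then 1.80 and 2.55, with 0.16), and GSTA1, a glutathione transferase (0, then 2.56 and 1.67, with 0.23). By contrast MIR611 was at 2.89 in the shSOX2 day 0 library and at 2.23 and 4.95 in the induced shTP63 libraries, and SNORA84 at 1.5, with 1.47 and 3.37.

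**Figure D5:**
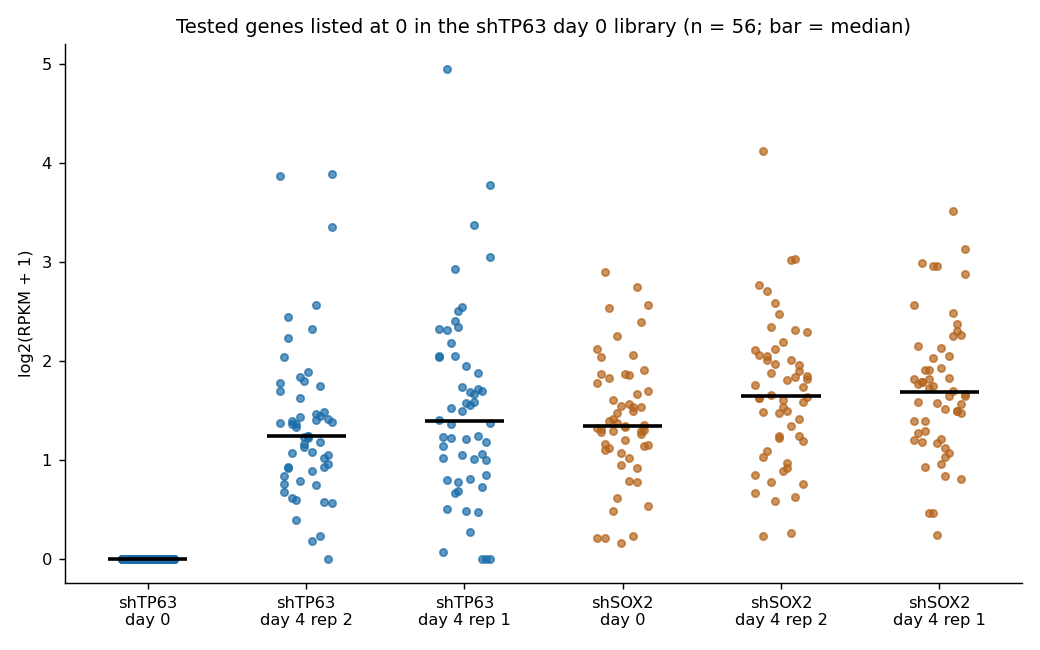
Level, log2(RPKM + 1), of the 56 tested genes that were listed at 0 in the shTP63 day 0 library, in each of the 6 libraries, with a bar at the median. The medians of the other 5 libraries lie between 1.24 and 1.68, and that of the shSOX2 day 0 library is 1.35.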

How the data were processed

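The authors deposited a single table for the 6 libraries, named as RPKM. Its values were read as log2(RPKM + 1), normalised by the authors between libraries. The evidence is in the values: every library tops out at 13.36, and all values fall on multiples of 1/14000, as means over 7 columns would. Base 2 was assumed. Because the values were already logs, they were tested directly, which departs from the planned log of RPKM. The submitters' processing notes name hg19. The sources used here name neither an aligner nor an annotation, and no protocol states a strand-specific step. Depth cannot be recovered, so the number of libraries limits the precision.

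Genes with a mean linear value of at least 1 over 6 libraries were kept. The 4 groups of all 6 libraries entered one limma model (limma 3.58.1, R 4.3.3) that used a trend of variance on level (2 residual and 5.53 prior degrees of freedom). P-values are two-sided with Benjamini-Hochberg adjustment over all genes, called under 0.05. ± is the standard error from limma. The second fit used both day 0 libraries as control. The procedure was tested on simulated data.

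Members and the 34 gene lists were chosen with earlier results of these data known, so no list was tested. Most lists printed nowhere else in the text are given in the closing section. Named genes were TP63, SOX2, called genes, 12 per direction by unadjusted p among genes 1.5-fold from day 0 in both libraries, 4 per list by unadjusted p, 10 genes at 0 by day 4 mean, 5 per library and direction, and 5 per direction of the difference. Not every gene the rule selects is described, and some items are not reported here. Promoters came from RefSeq (GRCh38.p14), matched by symbol or synonym. Figures were drawn in Python 3.11.15. Alternatives were a pseudocount of 5, no filter or a mean of at least 5, median-ratio scaling, no trend, the line alone, other day 0 controls, the replicate block and each library left out.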

Additional observations from a re-analysis of the deposited data

Results flagged for a closer look

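For 4 gene lists the median moved one way in both day 4 libraries of the shTP63 line and the other way in both of the shSOX2 line. The difference between the lines was not tested for these medians, and each line rests on 1 day 0 library. All 34 lists were looked at for such splits. The median difference from day 0 was -0.26 in the shTP63 line and 0.61 in the shSOX2 line for other receptor tyrosine kinases and their ligands (15 genes tested). For NF-kB and inflammatory cytokine genes (12 tested) it was -0.45 and 0.26, and SAA1, an acute phase protein, went from 4.06 to 1.28 and 1.58 in the shTP63 line but from 1.07 to 5.70 and 2.95 in the shSOX2 line. The NF-kB list stood 0.85 higher at day 0 in the shTP63 line than in the shSOX2 line, and against the shSOX2 day 0 library its median was 0.27. For extracellular proteases and inhibitors (14 tested) the medians were -0.019 and 0.50. For the 8 mitochondrially encoded genes they were 0.15 and -0.21, beside a distance of -2.62 between the day 0 libraries of the lines. The part of the day 0 libraries in these medians was not tested.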

How the results depend on the processing

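The lone day 0 library and the small number of libraries set the limits of these results. The count of 618 genes by the rule of size became 182 with a pseudocount of 5, 376 at a mean of at least 5, and 305 when both day 0 libraries had to be passed, a condition added after seeing the data; single day 4 libraries gave 1214 to 1291. The 2 limma calls became 154 (152 of them lower) without a filter, 1 at a mean of at least 5, 1 among genes above 0 in all 6 libraries (added after seeing the data), 0 in the shTP63 line alone, 291 with both day 0 libraries as control, 49 with the shSOX2 day 0 library, and 0 to 80 with single libraries left out. With the replicate block the count was 0, the TP63 difference was -1.77 (adjusted p = 0.208), AHNAK2 stood at 0.11, GATA6 at -0.032 and SOX2 at 0.065. The numbers did not pair the day 4 libraries (r = -0.0738 across genes), and the block took a degree of freedom from a small fit. The difference of responses called 0 genes in all alternatives except without shTP63 day 4 replicate 2 (5 genes); leaving out single libraries gave 0 to 5. TP63 was lower in all 14 alternatives (-1.88 to -1.22, adjusted p from 0.0248 to 0.229) and passed only with both day 0 libraries (-1.61). FOSL1 passed in 10 of 14 and ZNF467 in 6 of 12.

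Of 2303 values for 169 other named genes, 2113 kept direction and call, 141 passed only under an alternative, 10 no longer passed and 39 changed sign or reached 0 (29 genes); the cause was not tested. With the shSOX2 day 0 library as control the sign changed for AHNAK2 (0.33), ATP6V1C1 (0.025), C2orf28 (-0.38), EHF (0.10), EPCAM (-0.47), FGF2 (0.41), KRT75 (0.13), LGALS3 (0.27), MT-CO1 (-2.09), MT-ND1 (-2.67), RMRP (1.47), RN7SL1 (1.58), RNU2-6P (0.16), RP11-1020M18.10 (0.13), RP11-543P15.1 (-0.39), RP11-761N21.2 (-0.81), RP3-508I15.19 (-0.31), RPL32 (-0.25), RPS27 (-0.44) and SAA1 (0.36). With both day 0 libraries it changed for MT-CO1 (-0.34), MT-ND1 (-0.73), RMRP (0.24) and RN7SL1 (0.32). With 1 library left out the difference ran from -0.27 to 1.61 for AC112777.1, -1.68 to 0.32 for ACLY, -1.50 to 0.32 for AHNAK2, -1.49 to 0.29 for ATP6V1C1, -0.29 to 2.07 for C2orf28, -0.10 to 1.99 for CKB, -0.19 to 1.46 for CTD-2228K2.7, -1.53 to 0.27 for MKI67, -1.87 to 0.00 for RN7SL1, -0.18 to 1.69 for RP3-508I15.19, -0.16 to 1.55 for RPL39P5 and -1.66 to 0.081 for TPX2.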

Other observations

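Interferon response genes lay mostly above day 0 in the induced shTP63 line. Of 12 tested genes of the type I interferon response 8 were above day 0 in both day 4 libraries (66.7%, against 37.9% of all genes) and 2 below, with a median difference of 0.53. IFITM3, an antiviral membrane protein whose relatives share its sequence, was at 5.52, then 7.25 and 6.89 (limma, both day 0 libraries as control, 1.80 ± 0.35, adjusted p = 0.0363). Its levels also rose in the shSOX2 line, from 5.03 to 6.44 and 5.83. STAT2, a transcription factor of the interferon pathway, was at 1.58, then 2.80 and 2.90, but the shSOX2 libraries held 2.37 to 2.99. Of 10 tested genes of MHC class I presentation 5 were above day 0 in both libraries (50.0%) and 1 below. Their median was 0.03 in replicate 2, 0.59 in replicate 1 and 0.74 in the shSOX2 line. B2M, the light chain of MHC class I, was at 3.47, then 4.59 and 4.51, and in the shSOX2 line at 3.25, then 4.50 and 4.13. TAPBP, which loads peptides, was at 3.84, then 4.86 and 5.01, and in the shSOX2 line at 4.04, then 5.88 and 5.30.

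Mitochondrially encoded genes set the lines apart before induction. MT-CO1, a subunit of cytochrome oxidase, was at 8.40 in the shTP63 day 0 library and at 9.12 and 10.5 at day 4, against 11.7 to 11.9 in the shSOX2 line. MT-ND5, a subunit of complex I, was at 8.55, then 7.45 and 7.40, against 9.88 to 10.7. The median distance of the 8 tested genes between the day 0 libraries was -2.62.

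The remaining lists stayed near 0 or held few members past the rule of size. Over all genes tested 3.05% were higher and 2.82% lower by that rule. Of 16 tested desmosome and adherens junction genes 1 was at least 2-fold higher in both libraries and 0 lower (median 0.26). Of 15 Notch genes 0 were past the rule in either direction, of 36 genes of the integrated stress response 1 was higher and 3 lower, and of 20 genes of glucose uptake and glycolysis 1 was higher and 1 lower. Of 7 genes of the arrestin and glucose-sensing family 1, TXNIP, was higher. Of 4 tested genes of simple epithelium 0 were past the rule. KRT8, a simple epithelial keratin, was at 7.66, then 7.34 and 7.39 in the shTP63 line, and at 7.92, then 6.20 and 6.41 in the shSOX2 line.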
